A study of Mus musculus with 8 samples.

Results

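Fast excitatory signalling in the hippocampus runs through glutamate receptors, and 34 of the 35 genes chosen here, which encode these receptors and their auxiliary subunits, were read by 52 array probes. Members were the non-control probes whose gene name in the scanner files equalled a listed gene, out of 39429 probes for 30199 gene names. Nptxr, a pentraxin receptor, was matched by no probe and is not analysed here. The tissue was whole hippocampus of C57BL/6 mice, adults of 3 to 6 months that had been used in behavioural tests. Conditional knockout mice (CKO) were Ctcf loxP/loxP and carried Camk2a-Cre, a transgene active in excitatory forebrain neurons, and control mice (WT) were Ctcf loxP/loxP without Cre. Both genotypes thus carried the floxed alleles, only CKO mice carried Cre, and effects of Cre and of Ctcf loss cannot be told apart. There were 3 CKO pools and 3 WT pools, each of 3 mice. Same-numbered pools had like makeup: 2 females with 1 male (19 to 23 weeks old) in pool 1, only females, 3 in number (18 to 19 weeks), in pool 2, and only males, again 3 (15 to 17 weeks), in pool 3. CKO pool 1 and WT pool 1 were each measured on 2 arrays, which were averaged, so that 8 arrays on 2 slides gave n = 3 pools per genotype.

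AMPA receptors (Gria1 to Gria4) carry most of the fast synaptic current, NMDA receptors (Grin genes) pass calcium when glutamate and depolarisation coincide, and kainate receptors (Grik genes) modulate release and excitability. Metabotropic receptors (Grm genes) signal through G proteins, and delta receptors (Grid genes) bind synaptic organisers. Auxiliary subunits, the TARPs (Cacng genes) and cornichons (Cnih genes) for AMPA receptors and the Neto proteins for kainate receptors, set trafficking and gating. In bulk tissue, fewer cells of a type and less RNA per cell cannot be told apart.

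Each probe is a 60-base DNA oligo, and several results below turn on single probes. The 6 shown here are the probes of the largest positive differences (Grid1, Gria3, Grm5 and Cacng4), a Grin1 probe whose CKO pools all lay above its WT pools, and, for contrast in base composition, a Gria4 probe. They were chosen after their values were seen. Capitals mark G and C bases, since the differences described below moved with the share of these bases.
Grid1 probe A_55_P2001688, gene on chromosome 14, 55% G and C: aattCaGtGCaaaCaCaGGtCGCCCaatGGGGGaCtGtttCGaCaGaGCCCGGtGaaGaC
Gria3 probe A_52_P179309, gene on chromosome X, 48.3% G and C: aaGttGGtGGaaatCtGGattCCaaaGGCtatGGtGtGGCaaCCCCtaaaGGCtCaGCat
Grm5 probe A_55_P2112464, gene on chromosome 7, 45% G and C: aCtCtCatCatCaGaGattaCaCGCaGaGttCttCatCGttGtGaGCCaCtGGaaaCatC
Cacng4 probe A_55_P2052197, gene on chromosome 11, 55% G and C: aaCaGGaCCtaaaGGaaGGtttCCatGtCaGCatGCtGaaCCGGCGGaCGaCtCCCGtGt
Grin1 probe A_55_P2033366, gene on chromosome 2, 55% G and C: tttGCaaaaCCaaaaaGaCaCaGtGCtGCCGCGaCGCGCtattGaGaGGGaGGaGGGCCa
Gria4 probe A_52_P349182, gene on chromosome 9, 35% G and C: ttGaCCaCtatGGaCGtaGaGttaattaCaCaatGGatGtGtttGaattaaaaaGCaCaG

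Values are log2 signal relative to the 75th percentile of the array, and a difference is CKO minus WT. The arrays differed in brightness, with 75th percentiles from 2112 to 5104 and 59.2% to 66.0% of spots well above background. The dimmest 2 were the second arrays of pool 1 of both genotypes. Ctcf, the deleted gene, averaged 0.13 ± 0.07 in CKO pools and 1.00 ± 0.15 in WT pools (SD, n = 3 each), a difference of -0.87 (SE 0.13) whose limma adjusted p was 0.160, or 0.0333 with the pool number as a block. All 10 excitatory forebrain neuron markers, among them Slc17a7 and Camk2a, were well above background on all 4 arrays of each genotype. The mean levels of 5 marker lists did not overlap between genotypes. Those of the excitatory forebrain neuron, interneuron, astrocyte, oligodendrocyte precursor, microglia, and endothelial and mural lists overlapped. Of all single probes, 11.2% had pools that did not overlap, a share that does not apply to means over lists. No such share was worked out for lists, which were chosen with earlier results of these data known. The 5 lists are thus a description. All 8 measured dentate granule neuron markers were lower, and their mean level relative to the WT mean was -0.54 to -0.43 in CKO pools and -0.05 to 0.08 in WT pools. Of the CA1 pyramidal markers 6 of 7 were lower (-0.30 to -0.18 in CKO pools and -0.14 to 0.10 in WT pools), and of the CA2 and CA3 markers 6 of 10 (-0.20 to -0.15 in CKO pools and -0.05 to 0.05 in WT pools). Of the reactive astrocyte markers 8 of 9 were higher (0.44 to 1.00 in CKO pools and -0.26 to 0.17 in WT pools), and of the myelinating oligodendrocyte markers 10 of 11, with a narrow gap (0.135 to 0.29 in CKO pools and -0.07 to 0.130 in WT pools). All 12 choroid plexus markers were higher (0.51 to 1.02 in CKO pools and -1.22 to 0.72 in WT pools, lowest in WT pool 1), as were 14 of 15 activity-regulated genes (-0.18 to 2.17 in CKO pools and -0.11 to 0.20 in WT pools, with CKO pool 2 lowest), though in these 2 lists the pools overlapped. The part of any of these marker lists in the receptor values was not tested.

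No glutamate receptor or auxiliary subunit gene differed between genotypes past the threshold. Of the 52 probes, 47 (33 genes) were measured, meaning well above background on all 4 arrays of at least 1 genotype, and 0 of the 47 had a limma adjusted p under 0.05. Over all 23647 measured probes 8 did, or 0.0338%, all of them higher. The smallest adjusted p of a member was 0.941. At an unadjusted p under 0.05 there was 1 member probe (2.13%), against 5.30% of all probes. By direction 25 of the 47 differences were positive (53.2%, against 52.1% of all probes) and 22 negative. The member median was 0.03, against 0.01 over all probes. With the pool number as a block 0 of the 47 were called, against 0.376% of all probes. The pools did not overlap in 3 of the 47 probes, or 6.38%, against 11.2% of all probes. Of these, 2 had all CKO pools above all WT pools (6.01% of all probes had) and 1 had them below (5.21%).

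**Figure D1:**
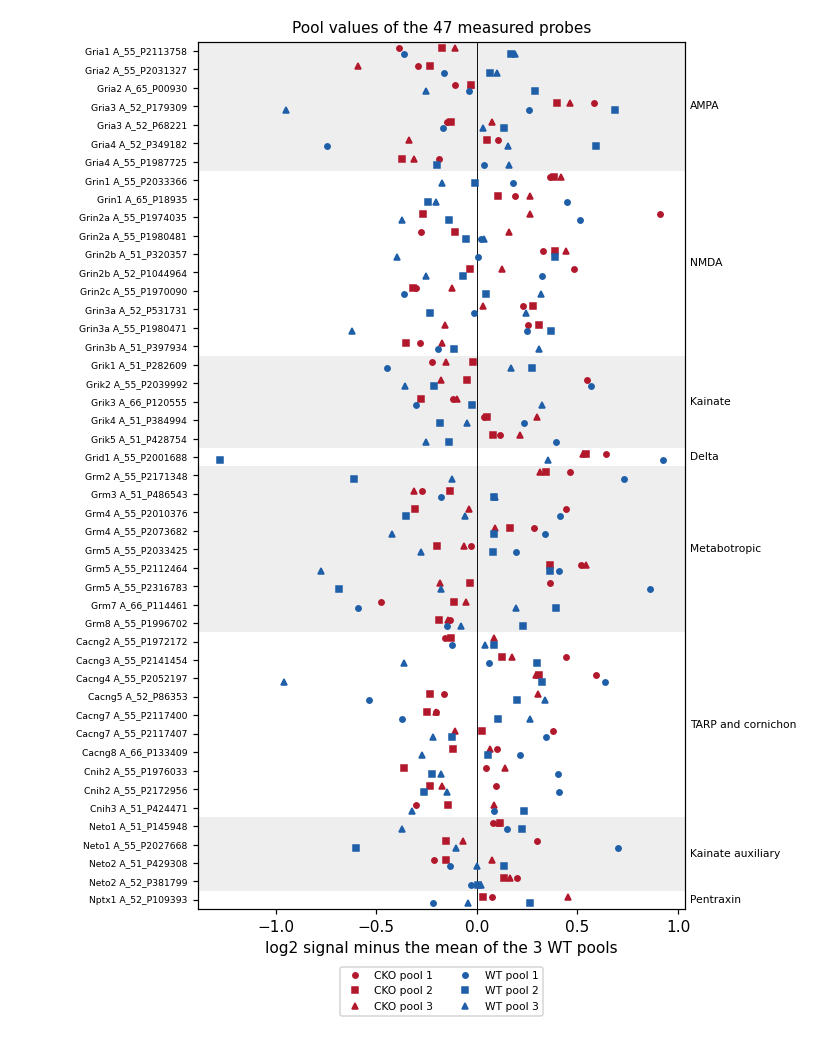
Level of each of the 47 measured probes in the 3 CKO pools (red) and 3 WT pools (blue), as log2 signal minus the mean of the 3 WT pools, grouped by receptor class. CKO and WT pools overlap in 44 of the 47 rows, and single WT pools stand far to the left in Grid1 (pool 2), and in Gria3 A_52_P179309, Grm5 A_55_P2112464 and Cacng4 (pool 3).

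The intervals show what the arrays could exclude. The 95% interval of the difference lay within a 2-fold change in both directions for 41 of the 47 probes. Standard errors ran from 0.13 for Cacng2 to 0.48 for Grid1, and the widest bounds were 1.68 upward for Grid1 and -0.84 downward for Gria4 probe A_52_P349182. In 42 of the 47 probes the difference was smaller than the larger of the 2 within-genotype SDs. A missed threshold does not show that the genotypes were alike. The intervals are for single probes and not adjusted, unlike the threshold. Ctcf, at -0.87 (SE 0.13), missed that threshold too in the fit without a block (limma adjusted p = 0.160). With 3 pools, shifts of that size or smaller could be missed.

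**Figure D2:**
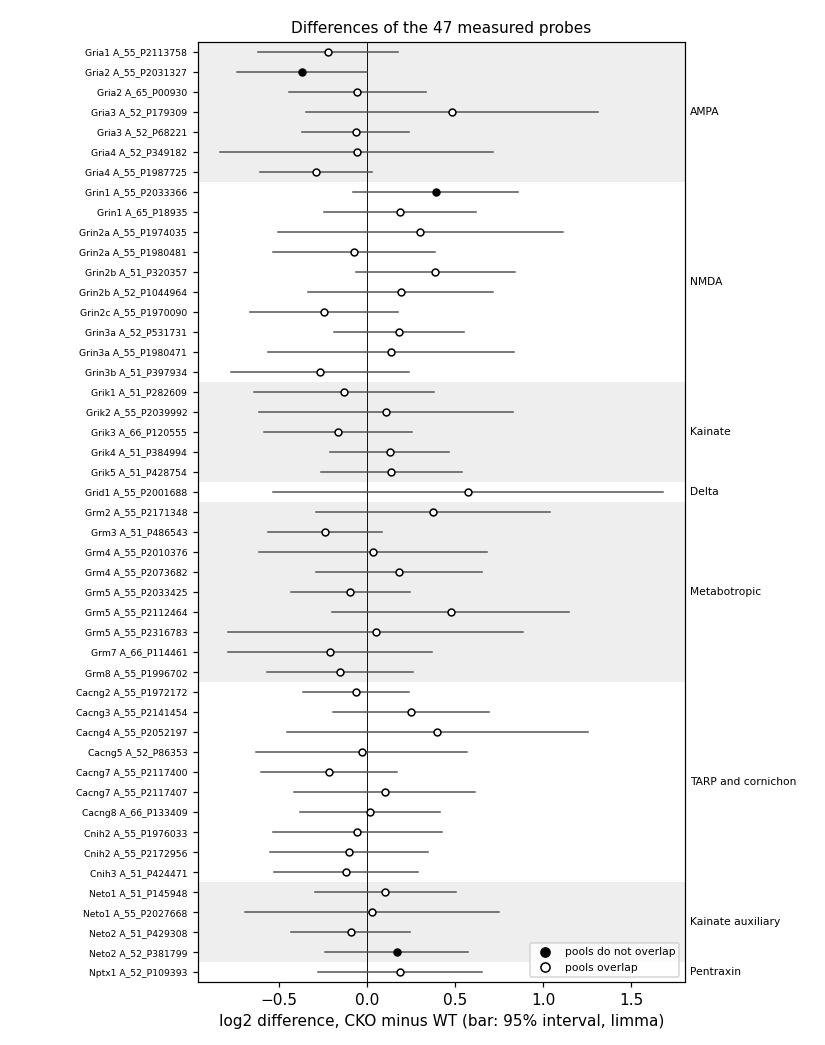
Log2 difference, CKO minus WT, of the 47 measured probes with its 95% interval from limma (bar), by receptor class. Filled points mark the 3 probes whose pools do not overlap, Gria2 A_55_P2031327 on the lower side and Grin1 A_55_P2033366 and Neto2 A_52_P381799 on the higher side. The interval of Grid1 is the widest.

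Of the AMPA receptor subunits, 6 of 7 probes were lower in CKO pools, with a class median of -0.07, and none was called. The 6 include both probes of Gria2 and of Gria4, and 52.1% of all measured probes were higher. Gria2, whose edited subunit makes the channel nearly impermeable to calcium, had the smallest unadjusted p of all members. Its probe A_55_P2031327 stood at -0.82, -0.76 and -1.12 in CKO pools 1, 2 and 3, against -0.69, -0.47 and -0.43 in WT pools. Every CKO pool lay below every WT pool, by a narrow gap of pool 2 of CKO to pool 1 of WT. The 2 arrays of pool 1 read -0.72 and -0.92 for CKO and -0.53 and -0.86 for WT. CKO was the lower on both, though the second WT array lay below CKO pools 1 and 2. The difference was -0.37 (SE 0.16), or 0.773-fold, with adjusted p = 0.941 by limma (the unadjusted value was 0.0491), and it ran from -0.45 to -0.26 with 1 pool left out. The other Gria2 probe, A_65_P00930, did not show the separation, at -0.79, -0.71 and -0.71 in CKO pools and -0.72, -0.39 and -0.93 in WT pools, a difference of -0.06 (SE 0.17). Gria1, the subunit recruited to synapses in long-term potentiation, stood at 1.38, 1.60 and 1.66 in CKO pools, against 1.41, 1.94 and 1.96 in WT pools. Pool 1 of both genotypes was nearly level there, and the difference was -0.22 (SE 0.17).

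The Gria4 subunit, prominent in interneurons, had 0.74, 0.56 and 0.62 in CKO pools, against 0.97, 0.73 and 1.09 in WT pools, by probe A_55_P1987725. CKO pool 1 lay at the level of WT pool 2, the lowest of WT, and the difference was -0.29 (SE 0.14). The second Gria4 probe, A_52_P349182, was dim and gave -0.06 (SE 0.34). The Gria3 probes disagreed in sign. Probe A_52_P68221 gave -0.07 (SE 0.13), with CKO pools at 1.35, 1.37 and 1.57 and WT pools at 1.33, 1.63 and 1.53. Probe A_52_P179309 gave 0.48 (SE 0.36), with CKO pools at -0.44, -0.63 and -0.56 and WT pools at -0.77, -0.34 and -1.97. That difference rested on WT pool 3, and CKO pool 2 lay below WT pool 2.

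Of the NMDA receptor subunits, 7 of 10 measured probes were higher, against 52.1% of all measured probes. The class median was 0.18, and none was called. The 7 were both probes of Grin1, Grin2b and Grin3a and 1 of Grin2a, so they are not 7 separate genes. Grin1, the obligatory subunit of every NMDA receptor, was positive by both probes. Its probe A_55_P2033366 stood at -4.05, -4.04 and -4.00 in CKO pools, against -4.24, -4.42 and -4.59 in WT pools. This probe was dim. The pools did not overlap, and CKO pools lay within a range far narrower than that of WT pools. The difference was 0.39 (SE 0.21), or 1.31-fold, with adjusted p = 0.989. The 2 arrays of pool 1 gave -4.22 and -3.88 for CKO and -4.39 and -4.09 for WT. CKO was the higher on both, though its first array lay below the second WT array. The gap between the 2 CKO arrays was wider than the range of the CKO pools. The Grin1 probe A_65_P18935 had 2.33, 2.25 and 2.41 in CKO pools, against 2.59, 1.90 and 1.94 in WT pools, a difference of 0.19 (SE 0.19). WT pool 1 was the highest of all 6 there, and its second array read 3.07 against 2.10 on its first.

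Among the regulatory NMDA subunits, Grin2b, which dominates in the young brain, gave 0.39 (SE 0.20) and 0.19 (SE 0.23) by its 2 probes. The first of these, A_51_P320357, read 0.23, 0.29 and 0.34 in CKO pools, against -0.09, 0.29 and -0.50 in WT pools, so that pool 2 was level between genotypes. Grin2a, the main partner of Grin1 in the adult hippocampus, gave 0.30 (SE 0.35) and -0.08 (SE 0.20). Its probe A_55_P1974035 read -5.01 and -2.95 on the first and second arrays of WT pool 1, a gap larger than any genotype difference among members. Grin2c, more typical of cerebellum and glia, gave -0.25 (SE 0.18), with CKO pools at 0.28, 0.27 and 0.46 and WT pools at 0.22, 0.62 and 0.90. Grin2d was not measured, since it stood well above background on 3 of 4 CKO arrays but on only 1 of 4 WT arrays. The glycine-binding Grin3a gave 0.18 (SE 0.16) and 0.13 (SE 0.31) by its 2 probes, and Grin3b gave -0.27 (SE 0.22). Both Grin2a probes, the second Grin3a probe and the Grin3b probe were dim, with CKO means between -4.21 and -3.61.

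Kainate receptor subunits had 5 measured probes, 3 higher and 2 lower, with a median of 0.11. The high-affinity subunits Grik4 and Grik5 gave 0.13 (SE 0.15) and 0.14 (SE 0.18). Grik4 stood at 1.79, 1.80 and 2.05 in CKO pools, against 1.98, 1.57 and 1.70 in WT pools, and Grik5 at 1.79, 1.76 and 1.89 in CKO pools, against 2.07, 1.54 and 1.43 in WT pools. In both genes pool 1 was lower in CKO, and pools 2 and 3 were higher. The channel-forming Grik1, Grik2 and Grik3 gave -0.13 (SE 0.22), 0.11 (SE 0.32) and -0.17 (SE 0.18), the Grik2 probe being dim. A second probe of each of these 3 genes was well above background on 0 of 8 arrays and was left out.

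The delta receptor Grid1, which binds cerebellins across the synapse, had the largest difference of any member. Its single probe stood at -2.62, -2.72 and -2.74 in CKO pools, against -2.34, -4.54 and -2.92 in WT pools. CKO pools lay close together, and WT pool 2 alone was far below the other 5 pools. The difference of 0.57 (SE 0.48, adjusted p = 0.999) was smaller than the WT SD of 1.14. Its lowest value in the alternative fits was -0.15.

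**Figure D3:**
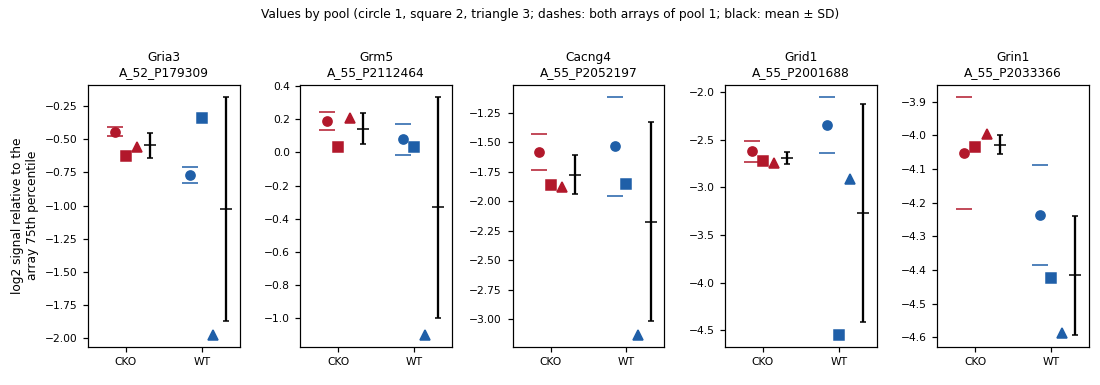
Log2 signal of 5 probes by pool in CKO (left, red) and WT (right, blue), with both arrays of pool 1 as dashes and the mean ± SD of the 3 pools in black. In Gria3, Grm5 and Cacng4 WT pool 3 (triangle) and in Grid1 WT pool 2 (square) lie far below the other 5 pools, and in Grin1 the CKO pools lie above the WT pools. The vertical axes differ between panels.

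Metabotropic receptors split evenly, with 5 of 9 probes higher and a median of 0.03. Grm5, a postsynaptic group I receptor, had 3 measured probes that disagreed in sign, at -0.10 (SE 0.15), 0.48 (SE 0.29) and 0.05 (SE 0.37). By the first, A_55_P2033425, the values were 3.17, 3.00 and 3.14 in CKO pools, against 3.40, 3.28 and 2.92 in WT pools. By the second, A_55_P2112464, the values were 0.19, 0.04 and 0.21 in CKO pools, against 0.08, 0.03 and -1.10 in WT pools. The positive value came from WT pool 3, since pool 2 was level between genotypes and pool 1 differed by 0.11. The group II receptors, presynaptic brakes on release, went in different directions. Grm2 stood at 1.71, 1.59 and 1.56 in CKO pools, against 1.98, 0.64 and 1.13 in WT pools, a difference of 0.37 (SE 0.29). WT pool 1 was the highest of the 6, and its 2 arrays read 1.21 and 2.74. Grm3, also abundant in astrocytes, stood at -0.28, -0.14 and -0.31 in CKO pools, against -0.18, 0.08 and 0.09 in WT pools, a difference of -0.24 (SE 0.14). The group III receptors Grm7 and Grm8 gave -0.21 (SE 0.25) and -0.16 (SE 0.18). The 2 probes of Grm4 gave 0.03 (SE 0.28) and 0.18 (SE 0.21), the first of them dim.

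AMPA receptor auxiliary subunits showed no shared direction, with 4 of 10 measured probes higher and a median of -0.04. Cnih2, the cornichon that slows AMPA receptor deactivation, was read by 2 probes at -0.06 (SE 0.21) and -0.10 (SE 0.20). The first read 5.98, 5.57 and 6.07 in CKO pools, against 6.34, 5.71 and 5.75 in WT pools. Cnih3 gave -0.12 (SE 0.18). The main hippocampal TARP, Cacng8, gave 0.02 (SE 0.17), with CKO pools at -0.86, -1.08 and -0.89 and WT pools at -0.75, -0.90 and -1.23. Stargazin, encoded by Cacng2, gave -0.07 (SE 0.13), the lowest standard error of any member, and its second probe was well above background on 0 of 8 arrays. Cacng3 gave 0.25 (SE 0.19). Cacng4 gave 0.40 (SE 0.38), with CKO pools at -1.58, -1.86 and -1.88 and WT pools at -1.53, -1.85 and -3.13. Pools 1 and 2 were level between genotypes, and WT pool 3 alone was low. The type II TARPs Cacng5 and Cacng7 gave -0.03 (SE 0.26) for Cacng5, and -0.22 (SE 0.17) and 0.10 (SE 0.23) for the 2 Cacng7 probes.

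The kainate auxiliary genes Neto1 and Neto2 had 3 of 4 probes higher, against 52.1% of all probes, with a median of 0.06. Neto2 probe A_52_P381799 stood at -3.25, -3.31 and -3.28 in CKO pools, against -3.47, -3.44 and -3.42 in WT pools. This Neto2 probe was dim. The pools did not overlap and each genotype spanned a narrow range, with an SD of 0.03 in both. The 2 averaged arrays of pool 1 were farther apart, at -3.12 and -3.37 for CKO and -3.25 and -3.69 for WT. The first WT array lay above CKO pools 2 and 3. The fitted difference was 0.17 (SE 0.18), since the limma fit moderates the small spread of this probe toward that of probes of like brightness, and its adjusted p was 0.999. The other Neto2 probe gave -0.10 (SE 0.15), and the Neto1 probes gave 0.10 (SE 0.18) and 0.03 (SE 0.32). Nptx1, a pentraxin that clusters AMPA receptors, gave 0.19 (SE 0.20), with CKO pools at -2.04, -2.09 and -1.67 and WT pools at -2.34, -1.86 and -2.17. Of 13 genes with more than 1 measured probe, the probes agreed in sign in 8 and differed in 5 (Gria3, Grin2a, Grm5, Cacng7 and Neto2).

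Repeat arrays of the same pool gave a scale for these differences. The 2 arrays of pool 1 differed by a median of 0.27 in CKO and 0.54 in WT over the 47 probes, against a median absolute genotype difference of 0.17. In 40 of the 47 probes the arrays of WT pool 1 were farther apart than the genotypes, and in 27 those of CKO pool 1 were. Over all 23647 probes the medians were 0.22 in CKO and 0.51 in WT, against 0.13 between genotypes. Among these, the arrays of WT pool 1 were farther apart than the genotypes in 19484 probes, and those of CKO pool 1 in 15030. The counts are thus no trait of the members alone. The gaps are between single arrays and the genotype differences between means of pools, so averaging alone can make the latter smaller.

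The sign of a member's difference went with the base composition of its probe, a relation looked at after the values were seen. Of 17 member probes with under 40% G and C, 4 were higher in CKO pools (median -0.10). Of 17 with 40% to under 50%, 9 were higher (median 0.03), and of 13 with 50% or more, 12 were higher (median 0.14). Over all measured probes the medians in these ranges were -0.03, 0.03 and 0.03, and 43.5%, 56.3% and 57.9% of the probes were higher. Across the 47 member probes the difference and the G and C content had r = 0.47 and rho = 0.47, against 0.10 and 0.14 across all 23647 probes. The probes share the same 8 arrays and are not independent, so these are descriptions. The second array minus the first of the same pool went with base composition too, at r = 0.69 in CKO pool 1 and 0.67 in WT pool 1 across members, and at 0.52 and 0.54 across all probes.

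The relation differed between pools. The r of CKO minus WT with G and C content across members was 0.13 on the first arrays of pool 1 and -0.64 on its second arrays. It was 0.54 in pool 2 and 0.46 in pool 3. Across all probes these values were -0.02, -0.42, 0.30 and 0.22, so the pattern was not particular to the members. The receptor classes differ in probe composition, with a median G and C content of 35% for AMPA and 45% for NMDA subunit probes. After a correction that set each array's median in 12 bins of G and C content to the mean over arrays, the AMPA median was -0.09 and the NMDA median was 0.11. The correction, added after seeing the data, left 0 of 47 members called against 0.0465% of all probes. The correlation was then 0.27 across members and -0.07 across all probes. Gria2 probe A_55_P2031327 was then at -0.33 (SE 0.15) and Grin1 probe A_55_P2033366 at 0.28 (SE 0.19).

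**Figure D4:**
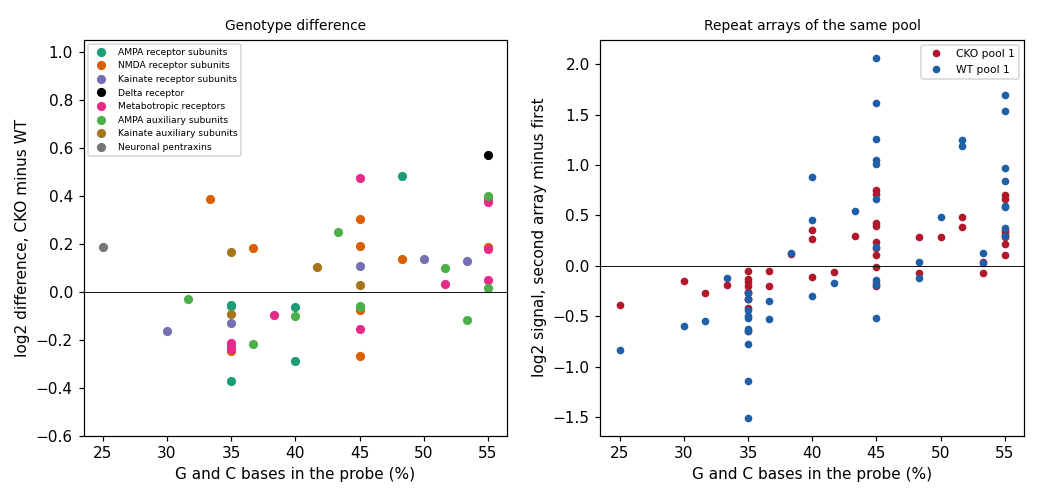
Left, log2 difference (CKO minus WT) of each of the 47 measured probes against the percent of G and C bases in the probe, coloured by class. Right, second minus first array of pool 1 in CKO (red) and WT (blue) for the same probes. Of the 13 probes with 50% or more G and C, 12 lie above 0 on the left, and on the right both pools climb with G and C content.

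Leaving out the second array of WT pool 1, the dimmest of the 8, moved many values. Without it 0 of 47 members were called, against 0.372% of all probes, while 10 members had an unadjusted p under 0.05 (21.3%, against 16.3% of all probes). The 5 lower genes of these, Gria1 (-0.35), Gria2 (-0.43), Grin2c (-0.35), Grm3 (-0.33) and Grm7 (-0.40), were read by probes of 35% G and C, and the lower Cacng7 probe (-0.31) by one of 36.7%. The higher ones were both Grin1 probes (0.44 and 0.35) and Grm2 (0.63), all of 55%, and Grin2a (0.65) of 45%. The correlation with G and C content was 0.65 across members and 0.34 across all probes in that fit. That fit keeps the second CKO array and drops its WT counterpart. With the correction added to it, 6 members had an unadjusted p under 0.05 (12.8%, against 14.4% of all probes), and 0 were called (0.359% of all probes). With the first array of every pool alone, 0 of 47 were called against 0.491% of all probes.

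Weighting the pools by their estimated quality (array weights) was the single alternative of 28 in which any member was called. Both arrays of pool 1 were averaged before the weighting, so neither had a weight of its own. The weighted fit called 954 probes, or 4.03% of all, and 3 of the 47 members. These were Grin2b probe A_51_P320357 (0.65, adjusted p = 0.0488), Grm5 probe A_55_P2112464 (1.02, adjusted p = 0.0407) and Cacng7 probe A_55_P2117400 (-0.43, adjusted p = 0.0491), all by limma. The weights were 2.66 for WT pool 3, 0.488 for WT pool 2 and 0.173 for WT pool 1, so that WT pool 3 carried most of the WT level. WT pool 3 was the lowest WT pool for both higher probes and the highest for the lower one. The unweighted adjusted p of the 3 probes were 0.989, 0.999 and 0.999.

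Of 81 measured genes in the 4 further lists, each read by its brightest probe, 0 were called, against 0.0327% of all genes. Of 23 further auxiliary and assembly proteins, 9 were higher and 14 lower. The complement-like C1ql2, a mossy fibre synapse organiser and also 1 of the dentate granule markers above, stood at 0.20, -0.02 and 0.01 in CKO pools, against 1.73, 1.35 and 0.42 in WT pools. CKO and WT pools did not overlap, and the difference was -1.10 (SE 0.30, limma adjusted p = 0.513). The AMPA auxiliary gene Gsg1l gave -0.54 (SE 0.16) and the cerebellin gene Cbln1 gave -0.73 (SE 0.26), with pools that did not overlap. Nptx2, an activity-regulated pentraxin, had a difference of 1.47 (SE 0.50), with CKO pools at -0.59, -2.92 and -1.63 and WT pools at -3.20, -2.89 and -3.45. CKO pool 2 lay among the WT pools, and pools 1 and 3 of CKO lay above them.

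Of 37 postsynaptic scaffold and trafficking genes, 20 were higher and 17 lower. The scaffold gene Homer3 gave -0.36 (SE 0.16), Dlgap4 gave 0.30 (SE 0.15) and the kinase gene Camk2d gave -0.30 (SE 0.16). Arc, which promotes AMPA receptor endocytosis, gave 1.10 (SE 0.59), at 4.41, 1.88 and 4.22 in CKO pools and 2.65, 2.00 and 2.56 in WT pools. Of 20 genes of glutamate uptake and supply, 8 were higher and 12 lower. The transporter gene Slc1a6 gave -0.38 (SE 0.14) and the vesicular transporter gene Slc17a7 gave 0.35 (SE 0.14), both with pools that did not overlap. The glutamine transporter genes Slc38a1 and Slc38a3 gave 0.34 (SE 0.17) and 0.26 (SE 0.18).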

How the data were processed

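The scanner files deposited by the authors hold spot intensity from 1-colour (Cy5) Agilent arrays, read with Feature Extraction 11.5 per the submitters' processing notes and 11.5.1.1 per the file headers. Its processed signal is corrected within an array for background and spatial trend, and not scaled between arrays, per the file headers. The deposited series value table, also intensity, served as an alternative. Here the signal was divided by each array's 75th percentile over non-control spots and put on the log2 scale. Outlier spots were left out, spots of a probe were averaged, and so were both arrays of pool 1. All 23647 measured probes were fitted with limma 3.58.1 (lmFit, eBayes with trend) under R 4.3.3. P-values were two-sided and adjusted by Benjamini-Hochberg over all these probes, with a threshold of 0.05. The number of arrays limits the precision, and with 3 pools per genotype the smallest p of an exact test is 0.1.

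Members and lists were chosen with earlier results of these data known. The text names all members, Ctcf, up to 4 genes of each pathway list by smallest unadjusted p, and marker lists as wholes. A result that this rule takes is not reported here. Other genes of the lists were matched through a RefSeq table (GRCm38.p6), which named 27508 of 39429 probes by accession, 3544 by symbol and 404 by synonym. The file headers name another build (mm9), so no coordinates are given. Probe sequences are those in the scanner files. The pool number was also fitted as a block, because deviations from the genotype mean correlated between same-numbered pools (0.54, 0.31 and 0.15 for pools 1, 2 and 3, across probes), which also had the same sex and age makeup. In all 28 other settings were tried, 6 of them chosen after seeing the data.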

Additional observations from a re-analysis of the deposited data

How the results depend on the processing

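Over 28 alternatives the 47 member probes gave 1300 values, of which 3 became called, all with array weights, and 0 lost or reversed a call, since none was called to begin with. The sign of an uncalled difference changed in 109 of these values, and 18 probes kept their sign throughout. The blocked fit called 89 probes over all (75 with quantile scaling, 33 without the second WT pool 1 array, 64 without GAA-repeat probes, 26 with the G and C correction), changed no member's call, and moved Ctcf past the threshold at -0.87 (adjusted p = 0.0333). With the block, Ctcf also passed with quantile scaling (-0.88), without the second WT pool 1 array (-0.95) and without GAA-repeat probes (-0.87), and did not with the G and C correction (-0.87, adjusted p = 0.0556). The count over all probes was 8 in the fit as reported, 5 with the brightest probe per gene, 0 within slide 2 (340 at an unadjusted p under 0.05), 116 with first arrays only, 88 without the second WT pool 1 array, 85 with the G and C correction as well, and 954 with array weights. Ctcf passed in the last 4 of these at -0.92, -0.95, -0.90 and -0.91. With 1 pool left out, the count ran from 1 (without WT pool 3) to 21 (without WT pool 1), and was 3, 5 and 2 without CKO pool 1, 2 and 3. Ctcf then ran from -0.95 (without WT pool 1, where it passed) to -0.80 (without WT pool 2), and the member median from -0.046 (without WT pool 3) to 0.14 (without WT pool 1). The member median of 0.03 was -0.062 with the brightest probe per gene, -0.071 within slide 1 and 0.11 with array weights. Of the pathway genes, C1ql2 was called within slide 1 (1 gene), and Cbln1 and Slc1a6 with array weights (2 genes). The causes of these changes were not tested. Pool counts of 3 and the signal over background limit what could be seen: 5 member probes were too dim to be measured.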
